A study of Homo sapiens with 18 samples.

Results

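The Hedgehog pathway genes described here are 9 genes for its ligands SHH and IHH, its receptors PTCH1 and SMO, the ligand-binding inhibitor HHIP, the cytoplasmic inhibitor SUFU and the transcription factors GLI1, GLI2 and GLI3. They were taken by symbol from a table of 55765 genes, and all 9 were found. With 10 µM tazemetostat, transcripts of GLI2, GLI3 and IHH rose in each of 3 lines of the same tumour cell, from levels at or near 0 for GLI2 and GLI3, while GLI1 fell in the control line and was lower by less than the fold limit in the other lines. The receptors and SUFU stayed within the fold limit in every comparison.

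The cells were G401, a line from a malignant rhabdoid tumour, a childhood cancer that lacks the chromatin remodelling subunit SMARCB1. The line called WT was a G401 control edited with CRISPR/Cas9 at the AAVS1 safe harbour locus, so its RB1 gene was intact. E1 and F2 were clones in which both copies of RB1, the gene of the retinoblastoma protein, had been disrupted with CRISPR/Cas9; each is 1 clone, so a difference of E1 or F2 from WT cannot be told apart from a difference between clones. Each line was kept for 11 days with tazemetostat at 10 µM, which blocks the enzyme activity of EZH2, or with the same volume of the solvent DMSO, in biological triplicate, which gives 6 groups of 3 libraries of poly(A) RNA. Both E1 and F2 comparisons with WT use the same WT libraries and are therefore not independent of each other.

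In the absence of ligand, PTCH1 holds the membrane protein SMO inactive, and SUFU binds GLI proteins and keeps them from acting. Ligand binding to PTCH1 releases SMO, which moves into the primary cilium, and GLI2 and GLI3 are then no longer processed to repressor forms. GLI2 acts mainly as an activator, GLI3 mainly as a repressor, and GLI1 is an activator whose own gene, with PTCH1 and HHIP, is among the most widely used transcriptional readouts of the pathway. EZH2 is the catalytic subunit of the complex PRC2, which places the repressive mark H3K27me3 at many developmental genes. SMARCB1 has been described as a protein partner of GLI1.

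Library depth ran from 25709489 to 39314860 reads counted to genes. RB1 transcripts were 2300 to 2828 normalized counts in the 6 WT libraries and 505 to 1045 in the 12 libraries of the clones. SMARCB1 had 0 reads in all 18 libraries, and VIM, a mesenchymal marker, was at 27410 to 69993 normalized counts. EZH2 transcripts themselves went from 2478 ± 89.4 normalized counts (SD, n = 3) to 876 ± 42.1 with tazemetostat in WT. They went from 3178 ± 349 to 2989 ± 63.3 in E1 and from 3207 ± 148 to 2649 ± 60.3 in F2. Of 10 leukocyte, endothelial and epithelial markers, 9 were in the table and 4 were tested. With tazemetostat 2 were higher and 0 lower in WT, 3 higher and 1 lower in E1, and 2 higher and 1 lower in F2. Of all tested genes, 21.3%, 15.1% and 17.0% passed the same test in WT, E1 and F2. The 4 leukocyte markers summed to at most 7.4 normalized counts in every library, the 2 endothelial markers in the table to 0.95 to 8.93 in DMSO and 27.1 to 65.6 with tazemetostat, and the epithelial sums followed KRT18, which went from 18069 ± 1204 to 115306 ± 2797 in WT, from 30288 ± 3400 to 67421 ± 1671 in E1 and from 9035 ± 790 to 63315 ± 3728 in F2. The epithelial markers did not move together. EPCAM went from 14.0 to 11.2 in WT, from 9.14 to 3.35 in E1 and from 16.4 to 7.03 in F2. CDH1 went from 256 to 353, from 15.9 to 140 and from 149 to 265 in the same lines. The part of these markers in the results below was not tested. In bulk RNA, fewer cells that express a gene and less RNA of it per cell cannot be told apart.

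RefSeq promoter sequences (GRCh38.p14) were at hand for 7 of the 9 genes, with 12 start sites in all; GLI1 and GLI3 have no entry. Each was searched, from 250 bases before to 50 after the start, on both strands for GACCACCCA, the sequence bound by GLI proteins, whose reverse complement is TGGGTGGTC. It was present in 83 of 35116 promoter windows of that length (0.236%) and in 1 of the 12 windows of these genes, upstream of a PTCH1 start. PTCH1 is a classic GLI target, and its upstream 250 bases, chr9:95509267-95509516 on the minus strand, are shown 5′ to 3′ with the match in capitals at 172 to 164 bases before the start.

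PTCH1: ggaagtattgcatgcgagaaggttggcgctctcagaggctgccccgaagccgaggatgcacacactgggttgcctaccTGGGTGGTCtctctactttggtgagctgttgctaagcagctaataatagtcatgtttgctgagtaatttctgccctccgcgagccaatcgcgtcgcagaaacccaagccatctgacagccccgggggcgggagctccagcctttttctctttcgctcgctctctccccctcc

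The other promoters shown are those of a receptor gene transcribed in all libraries and of the ligand gene that rose, for comparison of their CpG content (CpG in capitals). The promoter of SMO lies at chr7:129188383-129188632 on the plus strand and that of IHH at chr2:219060922-219061171 on the minus strand. The 300-base windows held 29 CpG for SMO, 37 for IHH and 36 for HHIP, and 31 and 7 for the 2 starts of GLI2, while the 5 PTCH1 windows held 13 to 27, SUFU 20 and SHH 7, against a median of 14 over all promoters (quartiles 4 and 28). The second GLI2 start, at chr2:120792031-120792280 on the plus strand, is shown as the CpG-poor example. No methylation or chromatin was measured in these libraries.

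SMO: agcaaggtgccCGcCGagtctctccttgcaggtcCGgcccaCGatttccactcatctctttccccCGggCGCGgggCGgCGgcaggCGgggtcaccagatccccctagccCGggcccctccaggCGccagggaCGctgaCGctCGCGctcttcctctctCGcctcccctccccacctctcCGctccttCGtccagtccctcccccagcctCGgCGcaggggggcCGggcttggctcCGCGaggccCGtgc

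IHH: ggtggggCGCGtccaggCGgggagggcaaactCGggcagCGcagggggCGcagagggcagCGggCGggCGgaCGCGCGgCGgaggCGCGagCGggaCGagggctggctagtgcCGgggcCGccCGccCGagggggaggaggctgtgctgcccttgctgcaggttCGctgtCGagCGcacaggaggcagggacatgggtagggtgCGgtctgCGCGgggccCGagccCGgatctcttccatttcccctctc

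GLI2: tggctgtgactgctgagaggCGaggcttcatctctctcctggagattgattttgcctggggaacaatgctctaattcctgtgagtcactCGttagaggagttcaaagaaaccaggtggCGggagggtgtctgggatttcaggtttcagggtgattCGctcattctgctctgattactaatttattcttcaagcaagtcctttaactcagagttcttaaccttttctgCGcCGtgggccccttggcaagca

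All levels below are normalized counts, the authors' gene counts divided by a size factor for each library. Tests are those of limma on log2(normalized count + 1) over 16154 genes with a mean of at least 10; a gene is called where its Benjamini-Hochberg adjusted p is under 0.05 and its log2 change is at least 1 in size, and it is written as log2 change ± standard error. Of the 9 genes, 7 passed the filter on the mean and 2, SHH and HHIP, did not: IHH lay just inside it with a mean of 12.1 and SHH just outside with 9.0. Fold changes on this scale understate the change of genes near 0.

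With tazemetostat, 3 of the 7 tested genes rose and 1 fell in WT, where 21.3% of all tested genes were called (14.5% higher and 6.77% lower). For clone E1 the counts were 3 and 0, where 15.1% of all genes were called (11.3% higher and 3.78% lower), and for clone F2 they were 3 and 0, where 17.0% were called (13.3% higher and 3.71% lower). The 3 that rose were GLI2, GLI3 and IHH in every line. All 3 were under a mean of 10 in the 9 DMSO libraries and passed the filter only through their treated libraries, as did 7.45% of all genes tested, so a gene of this kind had to differ and the count of 3 in 7 supports nothing by itself. Over the 7 tested genes the median log2 changes in WT, E1 and F2 were 0.18, -0.07 and -0.01, beside 0.03, 0.02 and 0.02 over all genes tested. By adjusted p alone, with no fold limit, 6, 6 and 5 of the 7 passed in WT, E1 and F2, where 64.2%, 46.8% and 52.2% of all genes did.

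**Figure D1:**
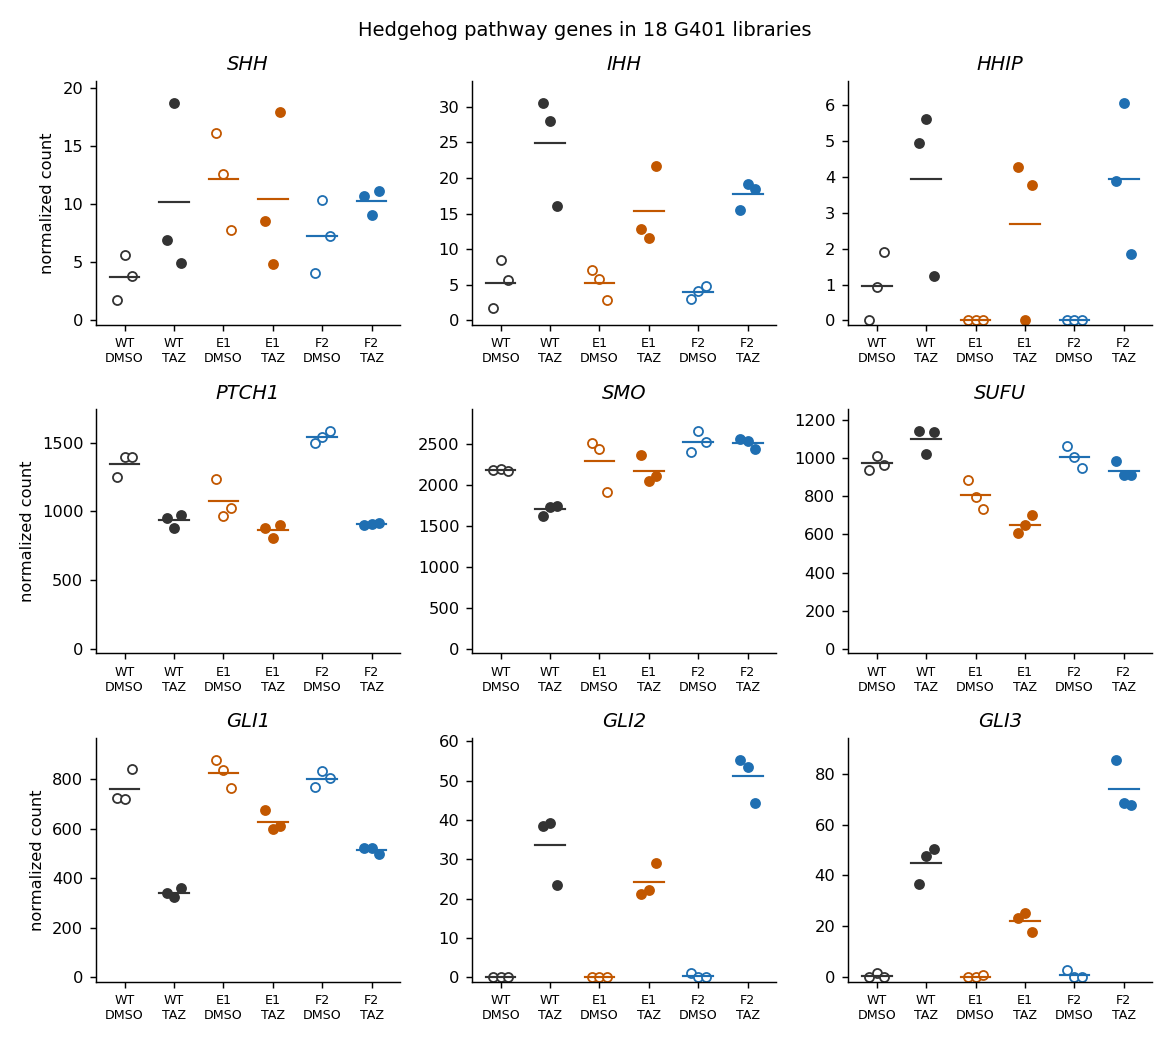
Normalized count (linear axis from 0, a scale of its own for each gene) of the 9 Hedgehog pathway genes in the 18 libraries; open points are DMSO, filled points tazemetostat (TAZ), and lines are group means. GLI2 and GLI3 lie at 0 to 3.07 in DMSO and at 17.9 to 85.4 with tazemetostat, and the treated GLI1 and PTCH1 libraries lie below the DMSO libraries of the same line.

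Of the ligand genes, SHH encodes Sonic hedgehog, and its transcripts were low in every group. In WT the DMSO replicates had 1.75, 5.65 and 3.79 normalized counts and the tazemetostat replicates 6.90, 18.7 and 4.93. E1 had 16.1, 12.5 and 7.79 in DMSO and 8.52, 4.84 and 17.9 with the drug, and F2 had 4.10, 10.4 and 7.28 against 10.7, 9.08 and 11.1. The treated and untreated ranges overlapped in each line. With the filter lowered to a mean of at least 1, limma called SHH higher in E1 than in WT in DMSO (log2 1.51 ± 0.49, adjusted p = 0.0408), while with no filter the adjusted p was 0.0785, so this call depends on how many genes are tested.

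IHH encodes Indian hedgehog, the ligand best known from cartilage. In WT it was at 1.75, 8.48 and 5.68 normalized counts in DMSO and at 30.5, 28.1 and 16.0 with tazemetostat. In E1 it went from 7.14, 5.79 and 2.92 to 12.8, 11.6 and 21.7, and in F2 from 3.07, 4.15 and 4.85 to 15.5, 19.2 and 18.5. In every line all treated libraries lay above all untreated ones. The treated mean was 4.69 times the DMSO mean in WT, 2.90 times in E1 and 4.41 times in F2; limma gave log2 changes of 2.16 ± 0.40 (adjusted p = 0.000123), 1.39 ± 0.40 (0.00797) and 1.91 ± 0.40 (0.00056). These values rest on 11 to 17 reads over the 3 DMSO libraries of a line; with a pseudocount of 5 the E1 change was 0.97, below the fold limit. The IHH response did not pass the test of a difference between any pair of lines.

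Among the receptors, PTCH1, which binds the ligands, was lower with tazemetostat in every line by less than the fold limit. The WT libraries had 1254, 1395 and 1395 normalized counts in DMSO and 955, 879 and 978 with the drug; those of E1 had 1239, 965 and 1022 against 882, 804 and 902; those of F2 had 1495, 1539 and 1584 against 901, 912 and 915. All treated libraries lay below all untreated ones within each line, and the 9 treated libraries lay between 804 and 978. The ratios of means were 0.695, 0.802 and 0.591. In limma the log2 change was -0.52 ± 0.08 in WT (adjusted p = 2.01e-05), -0.31 ± 0.08 in E1 (0.00435) and -0.76 ± 0.08 in F2 (2.51e-07), and none is a call; with only the E1 libraries in the fit the adjusted p for E1 was 0.0703. The clones started from different levels: in DMSO, E1 was below F2 by a log2 difference of -0.52 ± 0.08 (adjusted p = 6.37e-05 in limma) and below WT by -0.33 ± 0.08 (0.0062, and 0.132 with only these 2 groups in the fit). The response of E1 minus that of F2 was 0.45 ± 0.12 (adjusted p = 0.0133).

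SMO, the signal transducer that PTCH1 restrains, had the highest level per kilobase of exon of the 9 genes in every group. In WT it was at 2185, 2198 and 2177 normalized counts in DMSO and 1625, 1738 and 1752 with tazemetostat, with no overlap, and the log2 change was -0.36 ± 0.08 (limma, adjusted p = 0.00105). E1 had 2514, 2449 and 1920 against 2373, 2046 and 2109, and F2 had 2400, 2660 and 2528 against 2561, 2544 and 2444, and in both clones the ranges overlapped. The changes there were -0.07 ± 0.08 (adjusted p = 0.535) and -0.01 ± 0.08 (0.959). Treated E1 and F2 were above treated WT by 0.35 ± 0.08 (adjusted p = 0.00195) and 0.56 ± 0.08 (1.9e-05). The response of F2 minus that of WT was 0.35 ± 0.12 with an adjusted p of 0.0341 in limma, which rose above 0.05 when any of 9 single libraries was left out (up to 0.0856, without WT tazemetostat replicate 1); for E1 minus WT it was 0.29 ± 0.12 (0.0649).

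HHIP encodes a membrane protein that binds and sequesters ligand. It was at 0, 0.942 and 1.89 normalized counts in WT in DMSO and at 4.93, 5.61 and 1.23 with tazemetostat. In the clones it had 0 reads in all 6 DMSO libraries, and 4.26, 0 and 3.77 in treated E1 and 3.88, 6.06 and 1.85 in treated F2. The groups overlapped in WT and E1 and not in F2. Against a floor of 3 reads over the DMSO group, the ratio was 3.57 in F2 and 2.80 in E1. These ratios leave out the counting error of the 12 and 8 treated reads and are no bounds. In WT the ratio of summed reads per summed size factor was 4.51 with a 95% counting interval of 1.22 to 24.9. In the limma fit without a filter the change passed in F2 (log2 2.21, adjusted p = 0.00568) and not in WT (1.32, 0.0875) or E1 (1.55, 0.057). With the filter at a mean of at least 1 the E1 change also passed (adjusted p = 0.048), beside 0.00522 in F2 and 0.0723 in WT. Exons of HHIP overlap HHIP-AS1 on the opposite strand, which was at 0 to 6.62 normalized counts, and whether strand was used in counting is not given in the sources used here, so the HHIP values are uncertain.

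The inhibitor SUFU binds GLI proteins directly and restrains them. In WT it was at 940, 1014 and 965 normalized counts in DMSO and at 1141, 1023 and 1139 with tazemetostat, with every treated library above every untreated one. E1 had 888, 794 and 735 against 606, 649 and 702, with every treated library below every untreated one, and F2 had 1062, 1004 and 950 against 985, 909 and 911, with overlap. In limma the log2 change was 0.18 ± 0.08 in WT (adjusted p = 0.0621), -0.30 ± 0.08 in E1 (0.0045) and -0.10 ± 0.08 in F2 (0.298), all within the fold limit; with only the E1 libraries in the fit the E1 value was 0.0678. The response of E1 minus that of WT was -0.48 ± 0.11 (adjusted p = 0.00303). Treated E1 lay below treated WT by -0.76 ± 0.08 (adjusted p = 3.76e-07), while treated F2 lay below it by -0.23 ± 0.08 (0.02, and 0.333 with every library scaled to the same total).

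Among the transcription factors, GLI1 was the only GLI gene with more than a few reads in DMSO. In WT it was at 723, 722 and 842 normalized counts in DMSO and at 342, 325 and 361 with tazemetostat. E1 had 880, 839 and 765 against 675, 600 and 612, and F2 had 768, 835 and 805 against 523, 523 and 498. All treated libraries lay below all untreated ones in each line. The treated mean was 0.45 of the DMSO mean in WT, 0.76 in E1 and 0.64 in F2. GLI1 fell by 1.15 on the log2 scale in WT (SE 0.08, limma adjusted p = 4.2e-10), past the fold limit in each of the alternatives run, and the changes of -0.40 ± 0.08 in E1 (0.000513) and -0.64 ± 0.08 in F2 (1.86e-06) were within that limit. Exons of ARHGAP9 overlap GLI1 on the opposite strand; ARHGAP9 was at 3.94 to 26.2 normalized counts.

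The GLI1 response of each clone differed from that of WT in its own test. The response of E1 minus that of WT was 0.75 ± 0.11 (limma, adjusted p = 5.39e-05) and that of F2 minus WT 0.51 ± 0.11 (0.00276). Both are below the fold limit, and both kept an adjusted p under 0.05 in every alternative run. For E1 minus F2 it was 0.24 ± 0.11 and did not pass (limma, adjusted p = 0.18). In DMSO no pair of lines passed the test of a difference in GLI1, with estimates of 0.12 ± 0.08 for E1 minus WT (adjusted p = 0.331), 0.08 ± 0.08 for F2 minus WT (0.553) and 0.04 ± 0.08 for E1 minus F2 (0.725). With tazemetostat E1 stood above WT by 0.87 ± 0.08 (6.55e-08) and F2 by 0.59 ± 0.08 (8.04e-06). E1 stood above F2 by 0.29 ± 0.08 (0.0104, and 0.0801 with every library scaled to the same total).

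**Figure D2:**
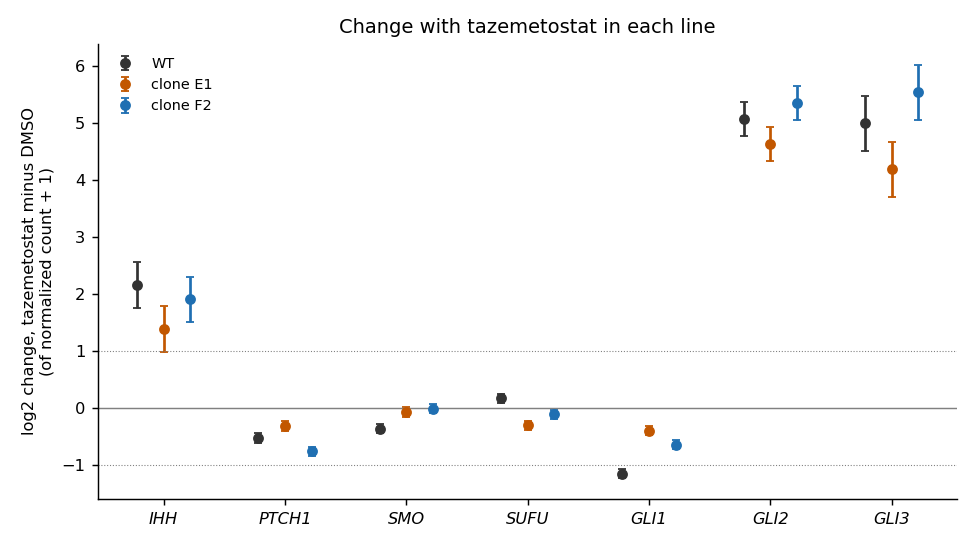
log2 change with tazemetostat of the 7 tested Hedgehog pathway genes in WT, E1 and F2; points are limma estimates, bars 1 standard error and dotted lines the fold limit. GLI2, GLI3 and IHH lie above the limit in all 3 lines, and GLI1 lies below it in WT at -1.15.

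GLI2 encodes the main activator among the GLI proteins. No read was counted in WT or E1 without the drug (0 in 6 libraries), and F2 had 1 read in 1 of its 3 DMSO libraries. With tazemetostat it was at 38.4, 39.3 and 23.4 normalized counts in WT, 21.3, 22.2 and 29.2 in E1, and 55.3, 53.5 and 44.4 in F2. Against the floor of 3 reads over the DMSO group the ratio was 37.6 in WT and 25.9 in E1, leaving out counting error in the treated reads. In F2 the ratio of summed reads per summed size factor was 140.8 (95% counting interval 24.9 to 5.6e+03). The limma log2 changes were 5.08 ± 0.30 (adjusted p = 2.86e-11), 4.64 ± 0.30 (1.41e-10) and 5.36 ± 0.30 (1.42e-11); they depend on the pseudocount and are no bounds.

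GLI3 encodes the factor that acts mainly as a repressor when processed. Its DMSO libraries summed to 2 reads in WT, 1 in E1 and 3 in F2. With tazemetostat it was at 36.5, 47.7 and 50.5 normalized counts in WT, 23.4, 25.1 and 17.9 in E1, and 85.4, 68.6 and 67.5 in F2, so the 3 treated groups did not overlap. The ratios of summed reads, each divided by the summed size factors of its group, were 72.7 (95% counting interval 19.7 to 606) in WT, 70.3 (12.2 to 2.82e+03) in E1 and 68.0 (23 to 332) in F2. The limma log2 changes were 5.00 ± 0.49 (adjusted p = 4.38e-08), 4.19 ± 0.49 (7.36e-07) and 5.54 ± 0.49 (1.25e-08).

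Per kilobase of exon, GLI1 made up at least 99.8% of the GLI transcripts in each of the 9 DMSO libraries. With tazemetostat its share was 88.9% to 91.7% in WT, 96.3% to 97.0% in E1 and 89.0% to 90.6% in F2, and GLI2 and GLI3 together held the rest. The summed GLI level per kilobase went from 181 ± 16.4 to 90.2 ± 3.26 in WT (SD, n = 3), from 197 ± 13.8 to 155 ± 9.38 in E1, and from 191 ± 7.73 to 136 ± 4.87 in F2. GLI1 thus remained the most abundant GLI transcript in all 18 libraries.

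**Figure D3:**
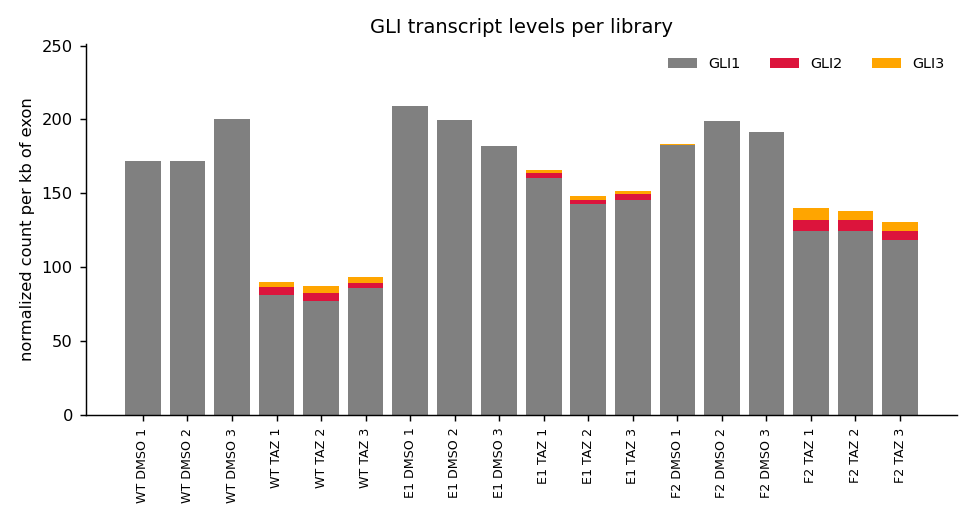
Normalized count per kilobase of exon of GLI1, GLI2 and GLI3, stacked from 0, in each of the 18 libraries (TAZ, tazemetostat; 1 bar is 1 library). GLI1 fills nearly the whole bar in DMSO, and the GLI2 and GLI3 segments are visible in the 9 treated libraries, where the sums are lowest in WT.

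Ordered by level per kilobase, the DMSO groups of all 3 lines ran SMO, GLI1, SUFU and PTCH1, with no overlap between neighbours. In WT these levels were 507, 181, 142 and 81.2. The order depends on the exon length used, the union of all annotated exons. In normalized counts WT in DMSO ran SMO 2187, PTCH1 1348, SUFU 973 and GLI1 762, so SUFU was above GLI1 there before the drug. IHH and SHH followed and overlapped in WT, and GLI2, GLI3 and HHIP came last, near 0. Per kilobase, with tazemetostat SUFU stood above GLI1 in WT (160 ± 9.83 against 81.5 ± 4.21) and in F2, while E1 kept GLI1 above SUFU. In the treated groups IHH followed PTCH1, and GLI2 and GLI3 in WT, at 4.59 ± 1.22 and 4.10 ± 0.68, did not differ beyond their spread.

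When lines were compared within a treatment, in DMSO 0 of the 7 tested genes were called between E1 and WT, F2 and WT, or E1 and F2, where limma called 5.04%, 2.98% and 7.56% of all genes. At an unadjusted p under 0.05 the counts were 2, 2 and 2, and edgeR and DESeq2 on the recovered reads also called 0 in each. With tazemetostat, 0 were called between E1 and WT (11.3% of all genes) and 0 between F2 and WT (12.3%), with 3 and 3 at an unadjusted p under 0.05. In the first of these edgeR and DESeq2 each called 1 gene, GLI3, lower in E1 by a log2 difference of -1.01 (adjusted p = 0.00869 and 0.00689), where limma gave -0.99 and 0.0994.

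Between the treated clones, 2 genes were lower in E1 than in F2, GLI2 and GLI3, where 4.43% of all genes were called lower and 6.82% in either direction. The difference was -1.05 ± 0.30 for GLI2 (limma, adjusted p = 0.0109) and -1.70 ± 0.49 for GLI3 (0.0117). The GLI2 call was near the limit: without E1 tazemetostat replicate 1 or 2, or F2 tazemetostat replicate 1, the difference was -0.97, -0.999 and -0.99, short of the fold limit, and with no filter the adjusted p was 0.0583. For GLI3 the adjusted p was 0.0596 with a pseudocount of 0.5.

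Whether the change with tazemetostat differed between lines was tested as a difference of 2 changes. None of the 7 genes passed both limits: 0 of 7 for E1 minus WT, F2 minus WT and E1 minus F2 in limma, with 10.0%, 7.48% and 5.81% of all genes called, and 0 in edgeR and DESeq2. By adjusted p alone GLI1 and SUFU passed for E1 minus WT, GLI1 and SMO for F2 minus WT and PTCH1 for E1 minus F2, beside 35.4%, 26.9% and 14.8% of all genes. For GLI3 the response of E1 minus that of F2 was -1.35 (adjusted p = 0.225), and it passed with a pseudocount of 5 (-1.40, 0.00295) and without F2 DMSO replicate 1 (-2.03, 0.0247); the DMSO levels in it rest on 1 to 3 reads a group.

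**Figure D4:**
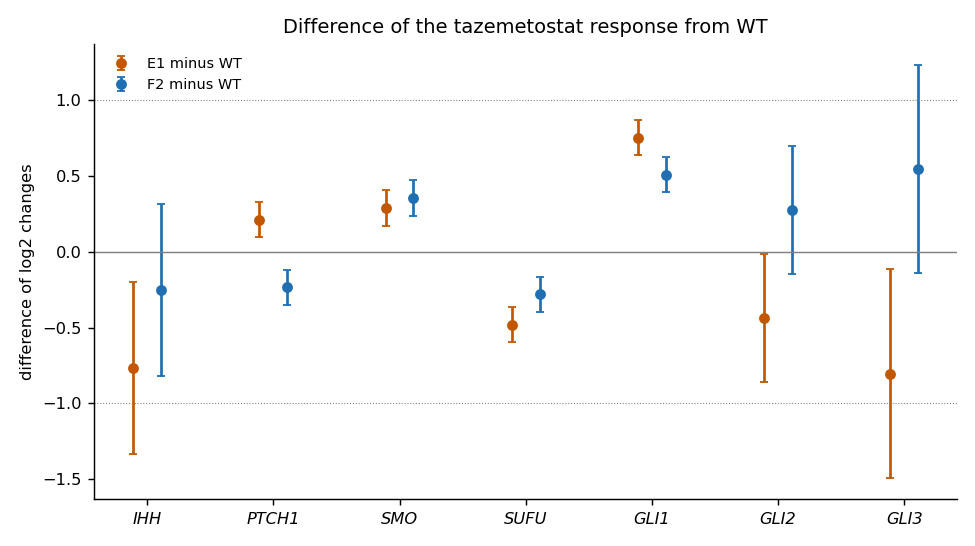
Difference of the tazemetostat response from that of WT for the 7 tested Hedgehog pathway genes, as a difference of log2 changes; points are limma estimates for E1 and F2, bars 1 standard error and dotted lines the fold limit. GLI1 lies above 0 for both clones, at 0.75 and 0.51, and the bars of GLI2, GLI3 and IHH are the widest.

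Among tested genes with a mean of at least 50, those most like each member over the 18 libraries were ranked by the root mean square difference of centred log2 values. That minimum leaves out GLI2, GLI3 and IHH themselves. For GLI1 they were ZCCHC8 (0.131), SHMT1 (0.145) and SKP2 (0.145), for PTCH1 NUDT3 (0.110), for SMO SMPD4 (0.0585) and for SUFU APOBEC3F (0.0897). Within this ranking CAMK2N1 was nearest to both GLI2 (0.356) and GLI3 (0.659), and ZYX to IHH (0.423). Between pathway genes, PTCH1 with SMO and PTCH1 with SUFU were nearest at 0.311 each, GLI2 with GLI3 stood at 0.523, and GLI1 with GLI2 at 2.93. GLI2, left out of the ranking, was closer to GLI3 than CAMK2N1 was. The first 3 genes for GLI1 were closer to it than any other pathway gene was. They were picked as the nearest of all ranked genes, so nothing about the pathway follows from this.

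Among other genes of the pathway, of 18 genes known as Hedgehog targets, 12 were tested and with tazemetostat 8 of them rose in WT, 6 in clone E1 and 7 in clone F2, and 0 fell, where 14.5%, 11.3% and 13.3% of all genes rose; the medians of the log2 change over the 12 were 1.51, 0.89 and 1.38. FOXF1, MYCN, SFRP1 and FOXC2, which are 4 of the risers in each line, passed the filter only through the treated libraries, so these counts and medians include genes that had to differ. CCND2, a G1 cyclin, went from 30.0 ± 0.63 normalized counts to 11139 ± 393 in WT, 371-fold, and by 547-fold in E1 and 201-fold in F2. FOXF1, a forkhead factor of mesenchyme, had 0 reads in all DMSO libraries and was at 67.5 ± 5.76 in treated WT, 54.4 ± 0.71 in E1 and 210 ± 17.5 in F2. Against the floor of 3 DMSO reads its ratios were 72.9, 57.7 and 193, leaving out counting error in the treated reads. SFRP1, a secreted WNT antagonist, was at 43.1 ± 4.63, 14.3 ± 2.87 and 60.3 ± 5.06 in the treated lines and at 0 to 1 reads over each DMSO group. IGFBP6, which binds insulin-like growth factors, went from 223 ± 2.95 to 794 ± 41.6 in WT, from 207 ± 67.8 to 782 ± 74.2 in E1 and from 214 ± 13.7 to 665 ± 41.2 in F2. Of the usual readouts, GLI1 and PTCH1 were lower in the same treated libraries. HHIP, also named as a readout, had a higher treated mean in each line, on at most 12 reads over a group.

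Among these targets, MYCN and FOXC2 stood low in treated E1. MYCN, a MYC family transcription factor, had 0 reads in all DMSO libraries and was at 31.2 ± 3.19 in treated WT, 2.34 ± 0.74 in E1 and 31.9 ± 3.54 in F2. FOXC2, another forkhead factor, was at 46.1 ± 3.51, 8.31 ± 3.16 and 46.8 ± 1.64, from 0.94 ± 0.94, 2.46 ± 1.80 and 1.03 ± 1.04 in DMSO. Treated E1 was below treated WT in MYCN by a log2 difference of -3.29 (limma, adjusted p = 6.37e-09). In E1 the rise of FOXC2 was lost without E1 DMSO replicate 3 (log2 1.15, limma adjusted p = 0.0556), and those of FOXC2 and MYCN came to 0.83 and 0.55 with a pseudocount of 5, within the fold limit.

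Of the 6 co-receptor and ligand-binding genes, 5 were tested, and 2 rose and 0 fell in WT, 2 and 2 in E1, and 2 and 1 in F2, with medians of 0.73, 0.51 and 0.93, where 21.3%, 15.1% and 17.0% of all genes were called in either direction. The 2 that rose were LRP2, the endocytic receptor megalin, and GAS1, a co-receptor that promotes signalling, and both passed the filter only through the treated libraries. LRP2 was at 52.7 ± 9.98, 78.4 ± 10.9 and 198 ± 32.0 in treated WT, E1 and F2 and at 0 to 1 reads over each DMSO group. GAS1 went from 1.504 ± 1.35 to 34.1 ± 5.54, from 0.32 ± 0.56 to 30.0 ± 7.68 and from 0.81 ± 1.40 to 52.5 ± 10.4. GPC3, a glypican that competes for ligand, fell in E1 from 7343 ± 218 to 2248 ± 57.8. It was lower in WT and F2 too, from 1461 ± 87.9 to 768 ± 66.0 and from 1934 ± 301 to 1056 ± 79.6. Those log2 changes, -0.93 and -0.86, were within the fold limit. In DMSO E1 stood above WT by 2.33 (limma, adjusted p = 1.05e-12).

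Of the 7 ligand production genes 6 were tested, and 1 rose and 1 fell in WT, with 0 called in the clones, beside 21.3%, 15.1% and 17.0% of all genes in WT, E1 and F2. HHAT, which palmitoylates the ligands, rose in WT from 746 ± 57.3 to 1630 ± 97.8 (log2 1.13, and 0.98 with every library scaled to the same total, just within the limit). It was higher in treated E1 and F2 too, by 0.41 and 0.72 (limma, adjusted p = 4.9e-05 and 2.58e-08), within the fold limit. SCUBE1, of a family that helps release the ligands, fell in WT from 472 ± 133 to 144 ± 20.2 and stood lower in the clones already in DMSO (E1 14.2 ± 6.50, treated 22.3 ± 5.50; F2 101 ± 18.1, treated 136 ± 11.6), by -5.00 and -2.18 on the log2 scale against WT (limma, adjusted p = 7.17e-11 and 8.93e-06). Medians over the 6 genes were 0.40, 0.25 and 0.44.

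All 24 regulators of SMO and GLI proteins were tested, with 1 higher and 1 lower in WT, 1 and 1 in E1 and 0 in F2 (medians 0.02, -0.08 and -0.02); 4 were called in WT without WT DMSO replicate 3. These counts, and those of the cilium and zinc finger genes that follow, stand beside 21.3%, 15.1% and 17.0% of all genes called in WT, E1 and F2. DYRK2, a kinase of GLI2, rose in WT from 829 ± 41.2 to 1830 ± 52.6 and in E1 from 647 ± 74.0 to 1357 ± 116, by 1.14 and 1.07 on the log2 scale; the WT value was 0.99 with every library scaled to the same total, and the E1 value 0.97 without E1 DMSO replicate 2. In F2 the DYRK2 change was 0.93, just within the fold limit. GPR161, a ciliary receptor that restrains the pathway, fell in WT from 540 ± 44.0 to 253 ± 8.09. Its log2 changes in E1 and F2, -0.31 and -0.20 (limma, adjusted p = 0.00447 and 0.0456), were within the fold limit. SPOP, a ubiquitin ligase adaptor, fell in E1 from 4182 ± 102 to 1828 ± 179 (log2 -1.20). SPOP was lower in WT and F2 too, by -0.95 and -0.94 (limma, adjusted p = 1.49e-09 and 2.15e-09), just within the fold limit. Of 26 cilium genes, 1 rose and 2 fell in WT and 0 were called in the clones, with medians of -0.48, -0.21 and -0.21. In WT, TMEM231, of the transition zone, rose from 900 ± 54.2 to 2482 ± 114, and IFT80 and FUZ fell by 1.17 and 1.14 on the log2 scale. IFT80 changed by -0.55 and -0.67 in E1 and F2, and FUZ by -0.67 and -0.85. Each of these had a limma adjusted p under 0.05 and was within the fold limit. The TMEM231 changes in E1 and F2 were -0.03 (limma, adjusted p = 0.827) and 0.39 (0.000598). Of 8 other zinc finger genes of the GLI superfamily 5 were tested, and 1, GLIS3, fell in E1 from 4476 ± 727 to 1684 ± 88.0 and in F2 from 3850 ± 137 to 1611 ± 103. Without E1 DMSO replicate 3 the number called in E1 was 2. In WT the GLIS3 change was -0.47 (limma, adjusted p = 0.000117), within the fold limit.

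**Figure D5:**
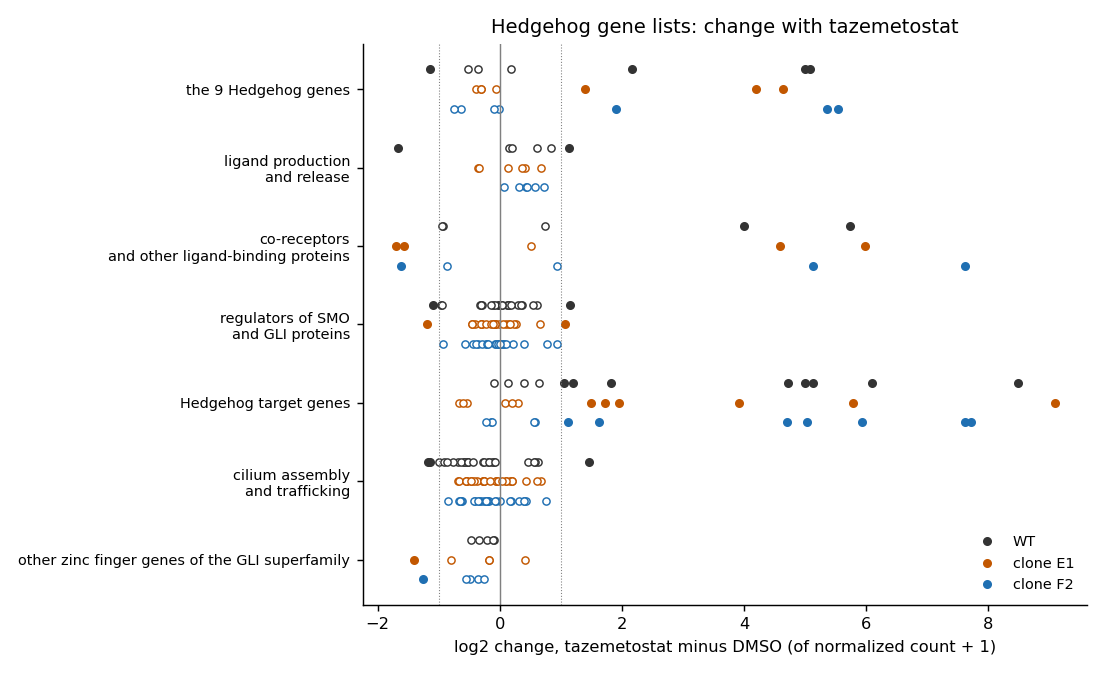
log2 change with tazemetostat of each tested gene of the Hedgehog pathway and of 6 other gene lists, in WT, E1 and F2; each point is a gene, filled where it passed the test, and dotted lines are the fold limit. Filled points to the right of the limit are most numerous among the target genes, at 8, 6 and 7, and the cilium genes lie mostly left of 0 in WT (median -0.48).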

How the data were processed

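RNA-seq of 18 libraries was analysed from 1 table of the authors: counts of reads per gene that each library's size factor had rescaled, a deposited signal that is not whole reads. Per the submitters' processing notes, Trim Galore 0.4.4, STAR 2.6.0a, HTSeq and DESeq2 were used with hg19; annotation and strand setting are not given in the sources used here. Per the labels, the poly(A) library kit was stranded. Values of every sample returned whole reads (100% of them) once multiplied by that sample's factor, with a tolerance of 0.001.

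The main test was limma 3.58.1 in R 4.3.3, with log2(value + 1), a mean of at least 10, 6 group means in 1 fit and a trended prior, tested on simulated data. Alternatives were other pseudocounts and filters, no fold limit, other scalings, smaller fits, a replicate block, leaving out each library, and edgeR 4.0.16 and DESeq2 1.42.0 on the recovered reads. Intervals are exact, at 95%, and cover counting error only. An exact permutation test of 3 against 3 cannot go below 0.1 and was not used. Exon lengths are unions of GENCODE exons; promoters are from RefSeq.

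Deviations of same-numbered replicates had correlations above 0.1 in all 3 pairs (0.182, 0.108 and 0.375) for F2 against WT in DMSO only. The blocked fit changed no call in that comparison. The 3 values were also above 0 for tazemetostat in WT (0.096, 0.05 and 0.315). For the response of F2 minus WT the mean correlations were 0.13, 0.017 and 0.233. The pathway genes and the other lists were chosen with earlier results of these data known. Within each other list, the genes named are those past the threshold with the largest changes with tazemetostat or in the response; 1 gene of the co-receptor list is not reported here.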

Additional observations from a re-analysis of the deposited data

Results flagged for a closer look

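Each of the following differences of response (the log2 change with tazemetostat in 1 line minus that in another) was tested itself in limma and had an adjusted p under 0.05; those of the 4 pathway genes are below the fold limit. For GLI1 it was 0.75 for E1 minus WT and 0.51 for F2 minus WT, for SUFU -0.48 for E1 minus WT, for SMO 0.35 for F2 minus WT, and for PTCH1 0.45 for E1 minus F2. The 9 DMSO libraries lay between 722 and 880 normalized counts of GLI1, and the 9 treated libraries between 325 and 675. The SMO value is the least stable of these and was above 0.05 with no filter on low genes (0.0662).

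Among the other pathway lists, SCUBE1 differed by 2.35 for E1 minus WT and 2.10 for F2 minus WT, DISP2, a ligand release protein, by -1.19 for E1 minus WT, and TMEM231 by -1.49 and -1.07 for E1 and F2 minus WT; the last was -0.95 with every library scaled to the same total. FOXC2 differed by -3.23 for E1 minus WT and -3.21 for E1 minus F2, on 3, 8 and 3 reads over the DMSO groups of WT, E1 and F2. CCND2 differed by 1.47 for E1 minus F2 (0.997 without E1 DMSO replicate 3). Its mean in DMSO was 9.35 normalized counts in E1 against 32.7 in F2, and treated E1 was below treated F2, at 5118 against 6558.

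Genes at or near 0 reads in DMSO gave differences that rest on the pseudocount and on the treated levels. MYCN differed by -3.29 for E1 minus WT and -3.32 for E1 minus F2, FOXF1 by 1.62 for F2 minus WT and -1.93 for E1 minus F2, LRP2 by 1.90 for F2 minus WT and -1.65 for E1 minus F2, and SFRP1 by -1.22 for E1 minus WT and -2.02 for E1 minus F2. For these 4 genes neither edgeR nor DESeq2 on the recovered reads called the difference of responses.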

How the results depend on the processing

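Over 1602 pairs of a tested pathway gene's comparison and an alternative, 1545 kept direction and side of the threshold, 7 lost the call, 28 gained it and 22 turned direction; over 1050 for the named genes of the other lists the numbers were 1020, 29, 0 and 1. Of the pathway genes called, with no fold limit the number was 6 in E1 and 5 in F2 with tazemetostat, 2, 2 and 1 for the responses (E1 minus WT, F2 minus WT, E1 minus F2), 2 and 2 in DMSO (E1 against WT, E1 against F2) and 3, 3 and 4 with tazemetostat (E1 against WT, F2 against WT, E1 against F2). Of all 16154 tested genes, 3740 and 5997 passed with no fold limit in DMSO for E1 against WT and E1 against F2. Between treated lines 8373, 8573 and 5575 passed for E1 against WT, F2 against WT and E1 against F2. Whether pathway genes passed more often than all genes was not tested. A mean of at least 50 leaves GLI2, GLI3 and IHH untested. The number of pathway genes called was then 1 in WT, 0 in E1, 0 in F2 and 0 for E1 against F2 treated. For E1 against F2 treated it was 1 with pseudocounts of 0.5 and 5 and 1 with no filter, and 1 to 2 when a library was left out. For the response of E1 minus F2 it was 1 with a pseudocount of 5 and 0 to 1 when a library was left out. It was 1 with a mean of at least 1 for E1 against WT in DMSO (SHH, below the filter in the main test), 4 in E1 and 4 in F2 with tazemetostat at that filter (HHIP added), and 1 in edgeR and 1 in DESeq2 for E1 against WT treated.

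The directions that turned belong to differences that were not called, apart from SFRP1; the cause was not tested. With the same total they were GLI1 (-0.0028, E1 against F2 in DMSO) and PTCH1 (0.11, F2 against WT treated). In edgeR and DESeq2, GLI2 gave -1.39 and -0.61 for the response of F2 minus WT and 0.91 and 0.094 for E1 minus F2, GLI3 gave -0.091 for F2 minus WT in DESeq2, and SFRP1 gave 0.22 for E1 minus WT in edgeR. Leaving out each library in turn turned others, with ranges of GLI1 -0.0022 to 0.099 (E1 against F2 in DMSO), GLI3 -0.69 to 0.33 (E1 against F2 in DMSO), GLI3 -0.51 to 0.33 (E1 against WT in DMSO), GLI3 -0.51 to 0.68 (F2 against WT in DMSO), IHH -0.41 to 0.49 (E1 against WT in DMSO), IHH -0.68 to 0.21 (F2 against WT in DMSO), IHH -0.64 to 0.26 (the response of F2 minus WT), SMO -0.012 to 0.18 (E1 against WT in DMSO), SMO -0.19 to 0.0084 (the response of E1 minus F2), SMO -0.19 to 0.002 (E1 with tazemetostat), SMO -0.043 to 0.031 (F2 with tazemetostat).

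No same-number pairing is given by the labels, and correlations of same-numbered replicates ran from -0.244 to 0.375 over 36 pairs. With the replicate block the pathway genes called numbered 4 in WT, 3 in E1, 3 in F2, 2 for E1 against F2 treated and 0 in each other comparison.

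Scaling to the same total moved the median of all genes to -0.125 in WT with tazemetostat, 0.144 for F2 against WT treated and 0.13 for the response of F2 minus WT, and the share of calls that were higher from 68.2% to 57.9%, 59.5% to 71.4% and 64.5% to 75.7%. Counts over all genes with the fold limit kept ran from 2342 to 5720 (3436 in the main test) in WT, 1550 to 4082 (2434) in E1 and 1768 to 4698 (2745) in F2; they ran from 504 to 1037 (814), 337 to 596 (481) and 792 to 1694 (1222) for E1 against WT, F2 against WT and E1 against F2 in DMSO, from 1139 to 3130 (1833), 1230 to 3273 (1984) and 605 to 2001 (1101) for the same with tazemetostat, and from 1096 to 2044 (1616), 836 to 1521 (1208) and 605 to 1161 (938) for the responses. With tazemetostat in WT, the same total gave 6 cilium, 4 co-receptor and 1 ligand production gene called, and a mean of at least 50 gave 5, 3 and 4 target genes in WT, E1 and F2. Depth limits GLI2, GLI3, IHH, SHH and HHIP in DMSO, where single reads set the values.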
